A study of Homo sapiens with 18 samples.

Results

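The interferon-stimulated genes described here are 49 genes chosen by name, out of the 26702 genes in the deposited comparisons. They encode sensors of foreign RNA, the transcription factors of the interferon response, and the antiviral effectors, feedback proteins and chemokines that these factors switch on. Of the 49 genes, 47 were in at least 1 comparison, while IRF7 and EPSTI1 were in none. The RNA came from U2OS cells, an established human osteosarcoma line, and was selected for poly(A) tails and sequenced. Cells carrying siControl, siANKRA2 or siRFXANK were kept for 24 h in 10 µM Nutlin-3a, which frees p53 from its inhibitor MDM2, or in the solvent DMSO, with 3 samples in each of the 6 groups. Both siRNA targets encode proteins with ankyrin repeats, and RFXANK works with transcription factors of the RFX family. The labels name 1 siRNA per target. All groups thus share 1 cell line, a transfection and a solvent, and no label names an added interferon or a virus. The comparisons show whether Nutlin-3a or an siRNA shifted these genes.

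Type I and type III interferons bind receptors on the cell surface and activate the kinases JAK1 and TYK2, which phosphorylate STAT proteins. STAT2 and IRF9 are parts of the factor ISGF3, which binds interferon-stimulated response elements in promoters and induces genes that block viral entry, translation and RNA stability. Many of these genes are also expressed at a low level without interferon, and some are direct targets of other factors such as IRF1 or p53.

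A gene was called where the DESeq2 adjusted p of the deposited comparison was under 0.05. In the siRNA comparisons the sign was read from the targets themselves, so that ANKRA2 is lower after siANKRA2 (log2 fold change -1.81 ± 0.18 in DMSO and -2.58 ± 0.12 in Nutlin-3a; values after ± are standard errors throughout) and RFXANK is lower after siRFXANK (-2.96 ± 0.10 and -3.16 ± 0.10). Each siRNA also moved the target of the other. RFXANK was lower after siANKRA2 (-0.37 ± 0.07 in DMSO and -0.44 ± 0.07 in Nutlin-3a). ANKRA2 was higher after siRFXANK (0.73 ± 0.11 and 0.46 ± 0.06). Nutlin-3a raised ANKRA2 in siControl cells (1.95 ± 0.10) and in siANKRA2 cells (1.19 ± 0.19). After Nutlin-3a all 8 p53 target genes of a check list were called higher in siControl and in siANKRA2 cells. Of the markers of mesenchymal and bone cells, VIM, COL1A1 and SPARC had group means of at least 24062 normalized counts, RUNX2 was between 376 and 579, and COL1A2 and ALPL were lower, at 24.5 to 76.5 and 32.5 to 246. Of the epithelial markers, KRT8 and KRT18 were at 12123 or more, EPCAM between 93.8 and 180.3 and CDH1 between 6.75 and 50.6. PTPRC and CD14 had group means of at most 9.3 normalized counts, and CD3E and CLEC4C were in no table. The siRFXANK samples were registered separately, with labels of another form that add a tissue, a cell type and a genotype, and with no siControl samples of their own, so in siRFXANK against siControl the siRNA and a batch cannot be told apart. Nothing in the labels says whether the samples of a group were separate cultures. The p-values rest on a spread between samples estimated in the authors' fit, which may hold more than the 2 groups compared, and this spread may be technical. In RNA from whole cultures, fewer cells expressing a gene and less RNA of it per cell cannot be told apart.

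The tables hold no value per library. The level of each member in each group was therefore recovered, as an approximate mean in normalized counts, from the fold changes and standard errors of the 6 comparisons. By this measure 38 members were over a floor of 3 normalized counts in every group, 7 members (IRF9, IFITM1, MX2, RSAD2, CMPK2, IFI35 and CXCL11) were at or under it in some groups, and HERC5 and CXCL10 in all. A fold change against a group at the floor is given as "at least" the recovered mean of the other group over the floor of 3. This bound replaces only the mean at the floor and leaves out sampling error, so the true change may be smaller. For 5 of 41 members (12.2%), RSAD2, OAS2, IFIT3, OASL and IFIT1, the authors' mean over all samples exceeded the highest recovered group mean by more than 1.2 times, compared with 1.33% of 18456 genes, so that the levels of these genes are less certain than their fold changes. Per kilobase of exon, IFITM3, which blocks viral fusion at endosomes, was the most abundant member in untreated siControl cells with 1757 normalized counts, followed by IFI6 with 846 and UBE2L6 with 514. At the other end, group means of MX2, HERC5, CXCL10, RSAD2 and OAS2 reached at most 0.5, 0.6, 0.6, 1.5 and 1.8 per kilobase, although MX2, RSAD2 and OAS2 are classical interferon-induced genes. The same cultures thus gave some members of the response at a high level and others near 0, with the levels of RSAD2 and OAS2 less certain.

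What the members share beyond their names was read from the sequence around their starts. RefSeq windows (GRCh38.p14) from 250 bases before to 50 bases after a start were on hand for 40 of the 49 members, and not for IFIT2, DHX58, IRF7, OAS2, OASL, IFITM2, USP18, MX2 and TRIM22. An interferon-stimulated response element, searched as 2 copies of GAAA with 2 bases of any kind between them on both strands with overlapping matches allowed, was in 27 of the 40 members (67.5%), compared with 4.38% of 27305 genes. A gamma activated site, a binding sequence of STAT dimers, was searched as TTC and GAA with 3 bases between them and was in 13 of 40 (32.5%) against 9.38%. The core of a full p53 site, searched as 2 copies of CATG with 6 bases between them, was in none of the 40 windows and in 0.472% of genes. A match is a description of the letters in these windows, and binding was not measured. The following 3 windows belong to members of one family or response that moved apart under Nutlin-3a: IFIT3 and TLR3 rose and IFIT1 fell in siControl cells. Capitals mark the response elements, and TTTC is GAAA read on the other strand.
IFIT3 (chr10:89327747-89328046, plus strand, whole window): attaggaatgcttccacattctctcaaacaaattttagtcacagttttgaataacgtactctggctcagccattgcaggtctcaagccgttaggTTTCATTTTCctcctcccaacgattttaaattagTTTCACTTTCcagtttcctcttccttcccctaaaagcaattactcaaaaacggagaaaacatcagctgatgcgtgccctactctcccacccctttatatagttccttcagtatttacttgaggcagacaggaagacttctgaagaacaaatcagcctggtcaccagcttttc
IFIT1 (chr10:89392373-89392672, plus strand, whole window): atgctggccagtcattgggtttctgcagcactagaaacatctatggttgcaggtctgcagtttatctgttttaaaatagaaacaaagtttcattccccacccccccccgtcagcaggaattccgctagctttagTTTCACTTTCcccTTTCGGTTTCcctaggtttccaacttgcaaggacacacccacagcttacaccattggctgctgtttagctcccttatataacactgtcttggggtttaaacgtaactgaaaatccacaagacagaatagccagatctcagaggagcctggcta
TLR3 (chr4:186068906-186069205, plus strand, whole window): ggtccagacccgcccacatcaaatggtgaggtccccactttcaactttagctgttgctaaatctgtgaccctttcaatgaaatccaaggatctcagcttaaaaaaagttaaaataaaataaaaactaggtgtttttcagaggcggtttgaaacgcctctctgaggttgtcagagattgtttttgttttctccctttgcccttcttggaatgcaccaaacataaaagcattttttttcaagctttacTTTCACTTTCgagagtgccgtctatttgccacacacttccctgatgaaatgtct

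Shorter pieces of 60 bases or less are shown for members that the results turn on. Positions are counted from the transcription start. PARP9 and DTX3L are transcribed away from each other, their windows overlap, and their pieces show the same bases read on opposite strands, so that both windows hold the same element. IFIT5, OAS3, IFI44, ISG15, ISG20, BST2 and TRIM21 went in different directions in the comparisons while each window holds at least 1 element.
IFIT5 (window chr10:89414318-89414617, plus strand, positions -29 to 30): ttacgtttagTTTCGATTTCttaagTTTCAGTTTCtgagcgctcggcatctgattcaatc
PARP9 (window chr3:122564251-122564550, minus strand, positions -66 to -7): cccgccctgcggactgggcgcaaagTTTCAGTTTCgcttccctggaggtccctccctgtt
DTX3L (window chr3:122564088-122564387, plus strand, positions -31 to 28): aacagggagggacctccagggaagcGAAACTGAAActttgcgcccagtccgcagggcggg
OAS3 (window chr12:112938224-112938523, plus strand, positions -37 to 22): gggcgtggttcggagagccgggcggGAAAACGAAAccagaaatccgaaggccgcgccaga
IFI44 (window chr1:78649539-78649838, plus strand, positions -43 to 16): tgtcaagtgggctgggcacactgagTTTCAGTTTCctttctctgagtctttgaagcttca
ISG15 (window chr1:1013247-1013546, plus strand, positions -132 to -73): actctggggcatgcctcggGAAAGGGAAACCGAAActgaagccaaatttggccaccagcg
ISG20 (window chr15:88638766-88639065, plus strand, positions -94 to -35): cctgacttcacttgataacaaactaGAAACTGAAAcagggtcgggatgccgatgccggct
BST2 (window chr19:17405581-17405880, minus strand, positions -149 to -90): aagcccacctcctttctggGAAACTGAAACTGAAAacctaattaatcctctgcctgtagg
TRIM21 (window chr11:4393653-4393952, minus strand, positions -2 to 49): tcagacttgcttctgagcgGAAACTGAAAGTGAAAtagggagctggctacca

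In siControl cells, Nutlin-3a raised 21 of 47 members and lowered 7, so that 44.7% were higher where 21.9% of all genes were, and 14.9% were lower where 21.2% of all genes were. Because rarely expressed genes are seldom called, the shares were also taken over the 41 members and 18456 genes with a mean of at least 10 normalized counts: 51.2% of these members were higher and 17.1% lower, against 28.8% and 28.9% of genes. The median log2 fold change of the members was 0.40, and that of all genes 0.02. The largest rises were seen in IFIT3 (2.32 ± 0.12, or 4.99-fold), IFIT2 (2.27 ± 0.17), TLR3 (2.12 ± 0.11), TRIM22 (1.88 ± 0.06) and OASL (1.62 ± 0.14). The largest falls were in CMPK2 (-1.99 ± 0.40), IFI44L (-1.66 ± 0.40), USP18 (-0.94 ± 0.14), IFIT1 (-0.82 ± 0.13) and GBP1 (-0.70 ± 0.19). The direction was therefore mixed within the response, with more members up than down.

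**Figure D1:**
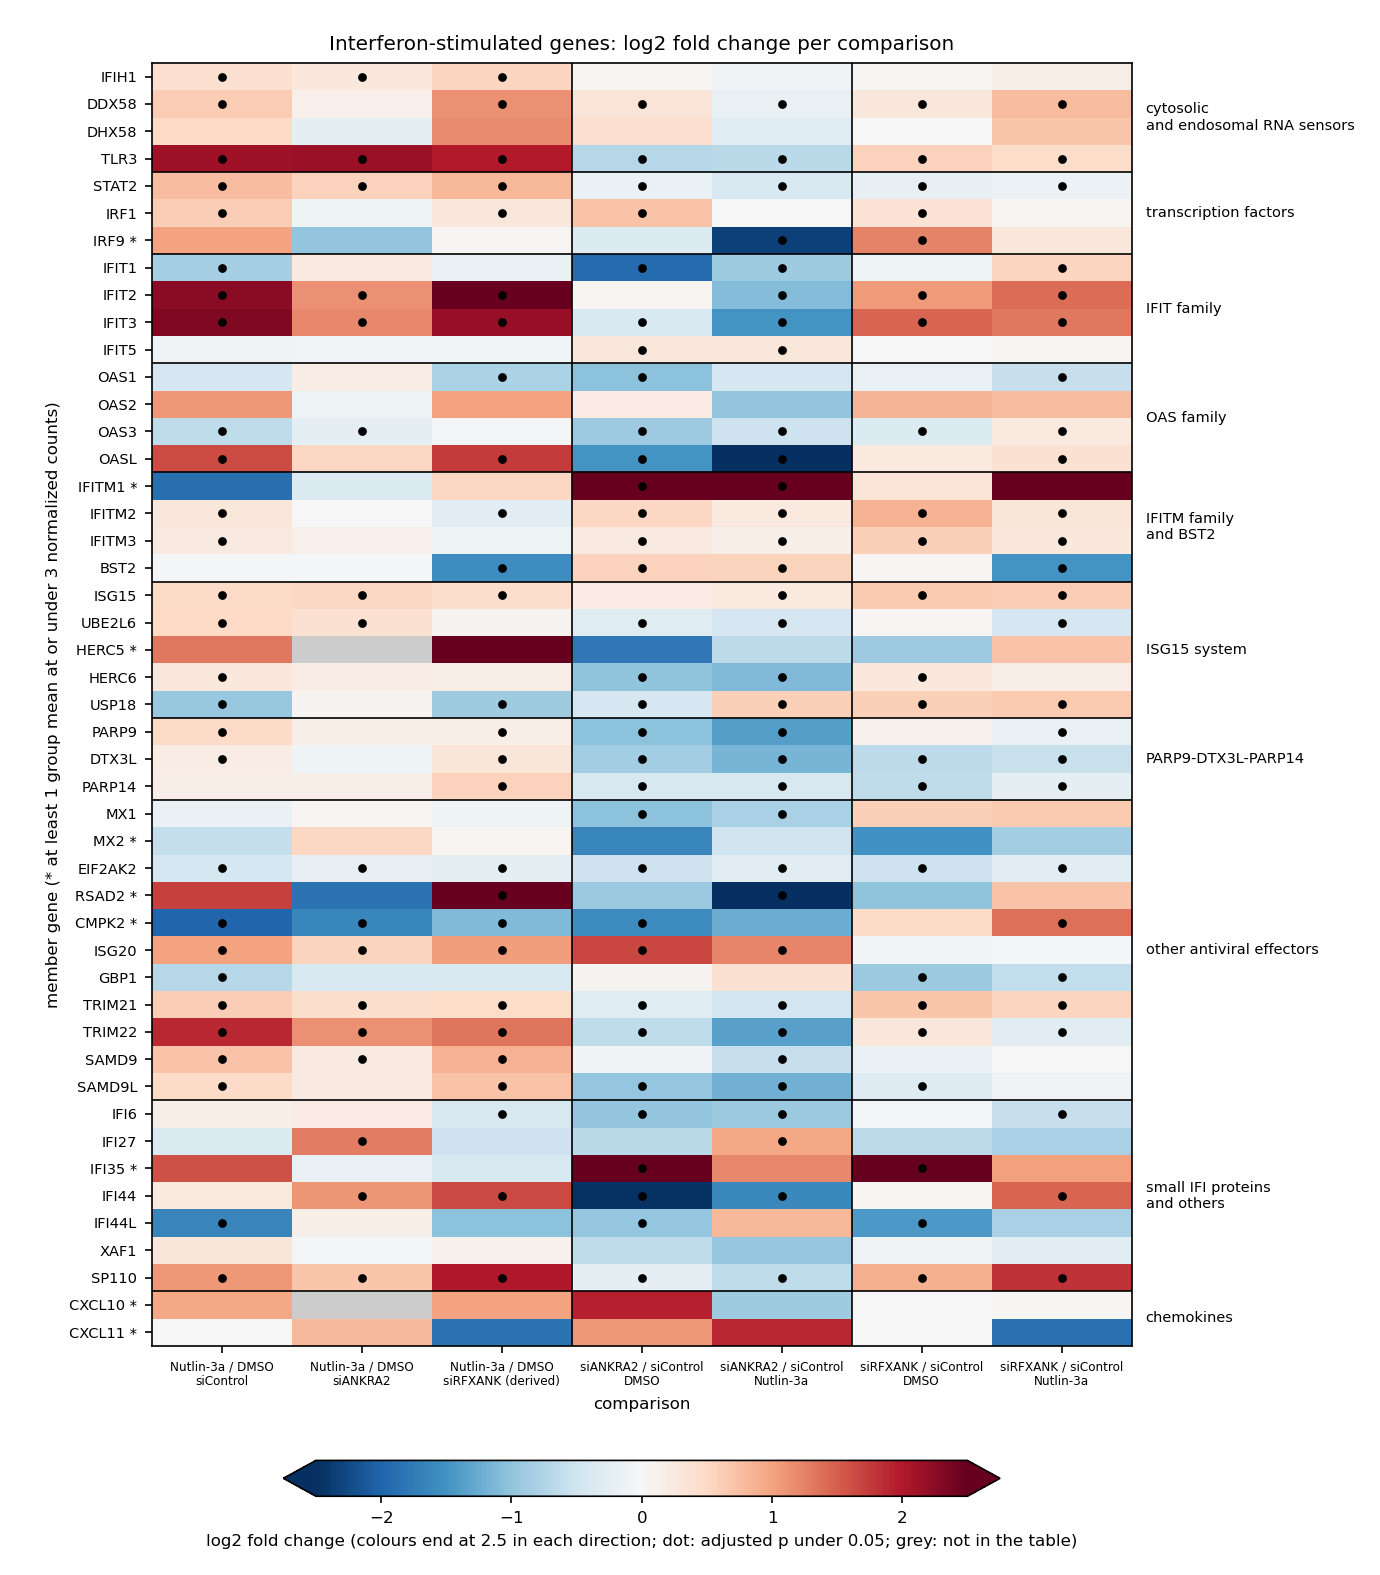
Log2 fold change of the 47 members in a table (rows, grouped by role) in the 6 deposited comparisons and the derived Nutlin-3a response of siRFXANK cells (columns). Red is higher and blue lower, colours end at 2.5 in each direction, dots mark adjusted p under 0.05, and an asterisk marks a member with at least 1 group mean at or under 3 normalized counts. The siANKRA2 columns hold more blue than red dotted cells, and the Nutlin-3a columns more red than blue.

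Among the RNA sensors, 3 of 4 rose. TLR3, the endosomal receptor for double-stranded RNA, went from 112 normalized counts in siControl cells in DMSO to 484 in Nutlin-3a. It was at 67.9 and 304 in siANKRA2 cells and at 167 and 662 in siRFXANK cells. Each Nutlin-3a group thus lay above every DMSO group. DDX58, which encodes the cytosolic sensor RIG-I, rose by 0.64 ± 0.08, and IFIH1, which encodes the sensor MDA5, by 0.40 ± 0.09, while DHX58, at 11.3 normalized counts or fewer, was not called (0.50 ± 0.57).

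Of the transcription factors, STAT2 rose by 0.78 ± 0.05 (DESeq2 adjusted p = 2.8e-48) and IRF1 by 0.62 ± 0.07. IRF9, the partner of STAT2, was low, at 7.4 normalized counts in DMSO and 15.0 in Nutlin-3a, and its log2 fold change of 1.01 ± 0.45 missed the threshold with an adjusted p of 0.054. All of the annotated IRF9 sequence also belongs to a read-through transcript, AL136295.5, so its count is uncertain.

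The IFIT family, whose proteins bind viral RNA, lies in 1 stretch of chromosome 10 in the order IFIT2, IFIT3, IFIT1, IFIT5, on the plus strand from chr10:89283694-89309276 (IFIT2) to chr10:89414586-89421001 (IFIT5) in GENCODE 29 on GRCh38. IFIT2 was at 38.1 normalized counts in siControl cells in DMSO and at 183 in Nutlin-3a, at 39.2 and 86.4 in siANKRA2 cells, and at 80.1 and 481 in siRFXANK cells. IFIT3 was at 72.4 and 361, at 55.6 and 127, and at 198 and 901 in the same order. Both genes were thus highest in siRFXANK cells in Nutlin-3a and lowest in the DMSO groups of siControl and siANKRA2. IFIT1, whose start lies 51574 bases past the end of IFIT3, had another pattern: it was at 247 and 140 in siControl cells, at 65.1 and 75.9 in siANKRA2 cells, and at 228 and 204 in siRFXANK cells. Its highest mean was that of untreated siControl cells, and it was low after siANKRA2 with either treatment. IFIT5 was nearly flat, between 796 and 1027 normalized counts, with a log2 fold change of -0.09 ± 0.07 under Nutlin-3a (adjusted p = 0.32). Neighbours of 1 gene family therefore rose, fell or were not called in 1 comparison.

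**Figure D2:**
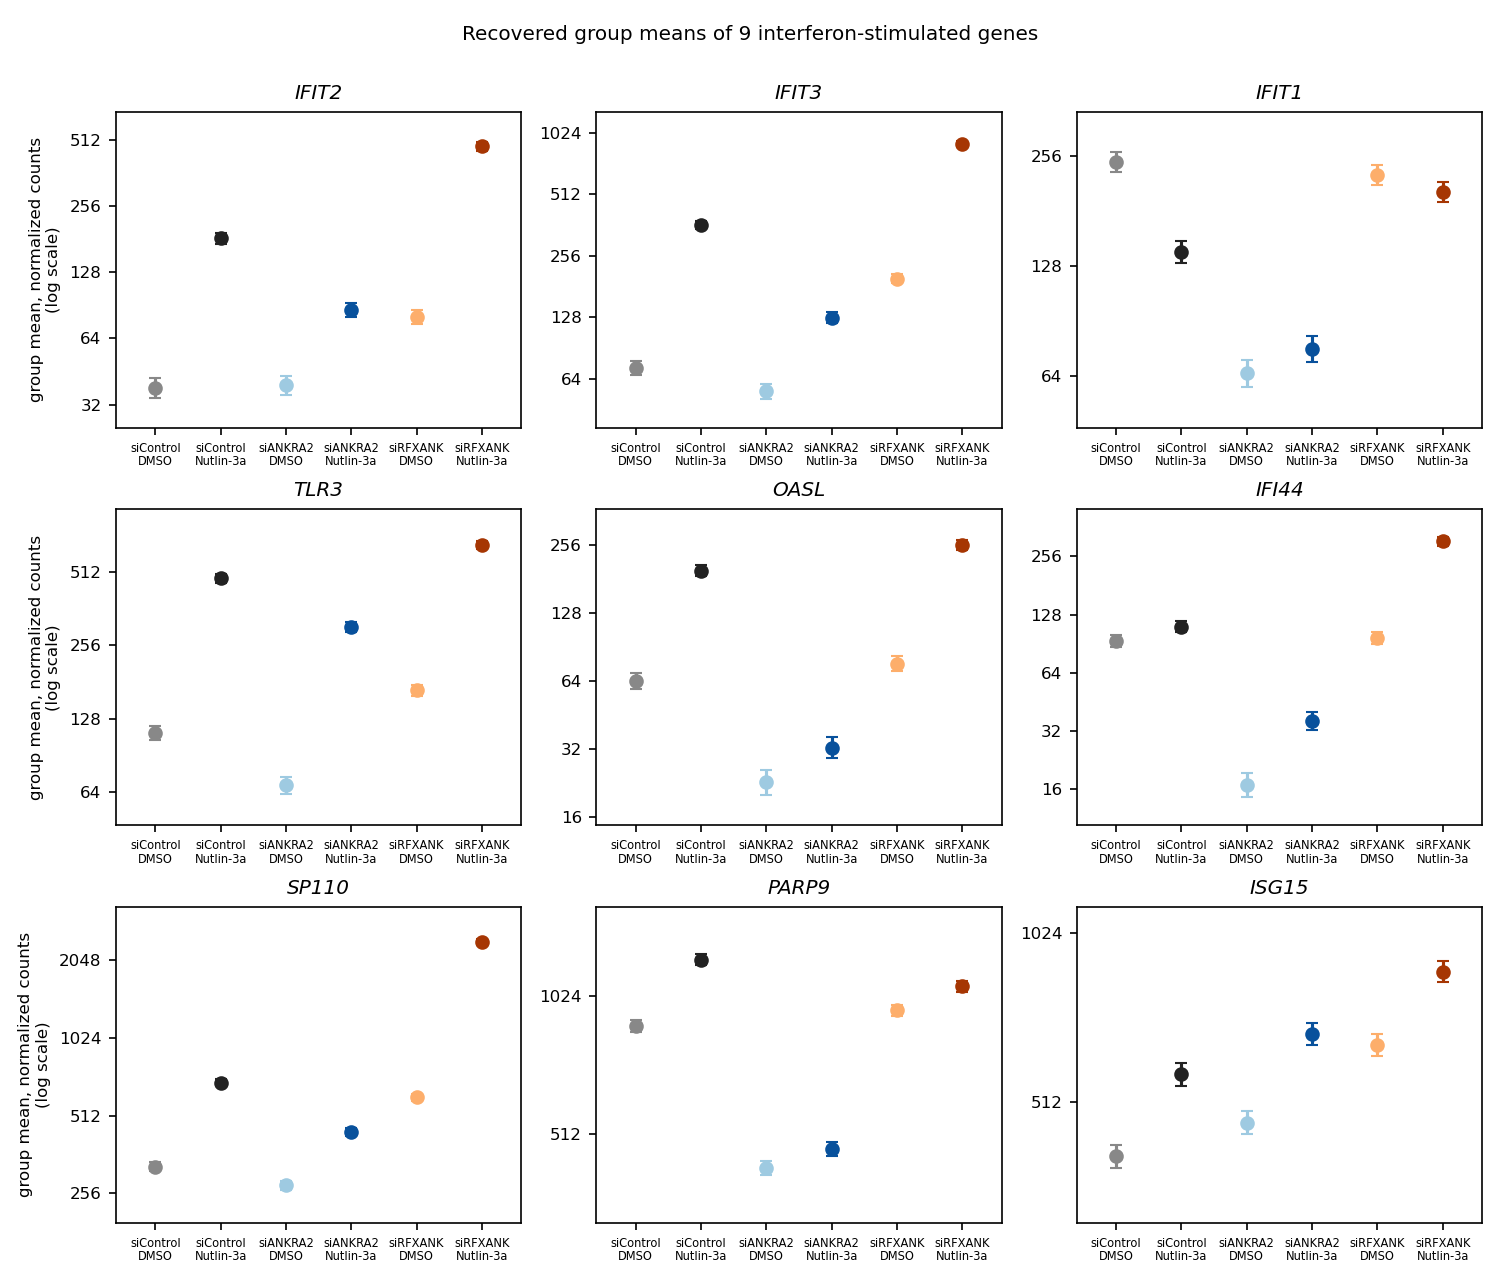
Recovered group means of 9 members in normalized counts (vertical axis, log scale) in the 6 groups (horizontal axis), with bars of 1 model standard error on the log2 scale. IFIT2, IFIT3, TLR3 and SP110 are highest in siRFXANK cells in Nutlin-3a, while IFIT1 is highest in siControl cells in DMSO and PARP9 is lowest in both siANKRA2 groups.

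The OAS family makes the second messenger that activates RNase L, with the exception of OASL, which binds RIG-I. OASL rose by 1.62 ± 0.14 in siControl cells, from 64.0 to 197 normalized counts. In the same cells OAS3 fell by 0.64 ± 0.08 on the log2 scale, from 1340 to 860. OAS1 (-0.42 ± 0.19, adjusted p = 0.068) and OAS2, at 6.8 normalized counts or fewer in siControl cells, were not called. The family thus split as the IFIT genes did.

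In the ISG15 system, which attaches the ubiquitin-like protein ISG15 to targets, ISG15 itself rose by 0.49 ± 0.10 (from 410 to 574 normalized counts), its conjugating enzyme UBE2L6 by 0.50 ± 0.05 and HERC6 by 0.27 ± 0.09. USP18, the protease that removes ISG15 and also blocks the interferon receptor, fell by 0.94 ± 0.14 on the log2 scale. HERC5, the main ISG15 ligase, was at the floor. Of the proteins that restrict viral entry or release, IFITM2 (0.28 ± 0.08) and IFITM3 (0.22 ± 0.06) rose slightly, whereas BST2, or tetherin, gave -0.03 ± 0.26 and was not called. Sequence shared among IFITM genes (45.9% of IFITM1, 24.6% of IFITM2 and 43.3% of IFITM3 as stretches of 31 bases) makes the division of reads between them uncertain.

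PARP9 (0.48 ± 0.06) and its partner DTX3L (0.19 ± 0.06), a complex that modifies histones and viral proteins, rose together, and PARP14 (0.18 ± 0.09) was not called. Of the 11 other antiviral effectors 5 rose and 3 fell. TRIM22, a known p53 target that restricts viral transcription, went from 588 to 2157 normalized counts. ISG20, an RNA exonuclease, rose by 1.01 ± 0.13, SAMD9 by 0.71 ± 0.09, the Fc receptor TRIM21 by 0.62 ± 0.06 and SAMD9L by 0.47 ± 0.13. By contrast, EIF2AK2, which encodes the kinase PKR, fell by 0.45 ± 0.06 on the log2 scale, GBP1 by 0.70 ± 0.19 and CMPK2 by 1.99 ± 0.40. MX1, the classical antiviral GTPase, was at 26.7 normalized counts in DMSO and 23.9 in Nutlin-3a and was not called (-0.16 ± 0.30). Among the 7 remaining proteins SP110, a nuclear body component, rose by 1.08 ± 0.07, IFI44L fell, and IFI6 (0.15 ± 0.10) and IFI44 (0.25 ± 0.14) were not called.

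In siANKRA2 cells, Nutlin-3a raised 14 of 45 members (31.1%, against 15.5% of all genes) and lowered 3 (6.67% against 17%). With a mean of at least 10 the shares were 34.1% and 7.32% of 41 members, against 18.4% and 20.6% of genes, and the median log2 fold change was 0.17. TLR3 had the largest rise (2.16 ± 0.13), followed by IFI27 (1.29 ± 0.44), IFIT3 (1.2 ± 0.15), TRIM22 (1.15 ± 0.07) and IFIT2 (1.14 ± 0.18). ISG15 rose by 0.53 ± 0.09 and STAT2 by 0.57 ± 0.06. The 3 that fell were CMPK2, at least 2.79-fold lower in Nutlin-3a, OAS3 (-0.24 ± 0.08) and EIF2AK2 (-0.21 ± 0.07). IFIT1 (0.22 ± 0.17), OAS1 (0.19 ± 0.23), MX1 (0.05 ± 0.38), and IRF9, which was at the floor in Nutlin-3a, were not called.

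The responses of siANKRA2 and siControl cells were compared by the difference of their log2 fold changes, tested over all genes with a two-sided normal test on the DESeq2 estimates. For 13 of 45 members the response was lower after siANKRA2 (28.9%, against 12.5% of all genes) and for 7 it was higher (15.6% against 11.4%). With a mean of at least 10 the shares were 31.7% and 17.1% of members, against 15.2% and 14% of genes. The response of IFIT3 was lower by 1.12 ± 0.19 on the log2 scale (adjusted p = 1.3e-07), that of IFIT2 by 1.12 ± 0.25, that of OASL by 1.11 ± 0.28 and that of IRF1 by 0.73 ± 0.10. That of IRF9 was called lower with 1 group at the floor. This call was lost (adjusted p = 0.054) when the same difference was taken from the 2 siANKRA2 against siControl tables, where p was adjusted over 26702 genes instead of 22738. Among those with a higher response, IFIT1 (1.04 ± 0.22) and USP18 (1.0 ± 0.20) fell in siControl cells and were not called in siANKRA2 cells, and so did IFI44L (1.80 ± 0.56). For IFI27 (1.64 ± 0.62) and IFI44 (0.85 ± 0.29) the rise was called in siANKRA2 cells and not in siControl cells. Apart from IFI27, IFI44 and IRF9, the named members thus had a response nearer to 0 after siANKRA2, whether they rose or fell in siControl cells. Differences for OAS1 (0.60 ± 0.30), ISG15 (0.04 ± 0.13) and MX1 (0.21 ± 0.48) were not called, and neither was that for TLR3 (0.05 ± 0.17). Beside this, all 8 p53 check genes responded less after siANKRA2, with a median difference of -1.12, and their part in the result was not tested.

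**Figure D3:**
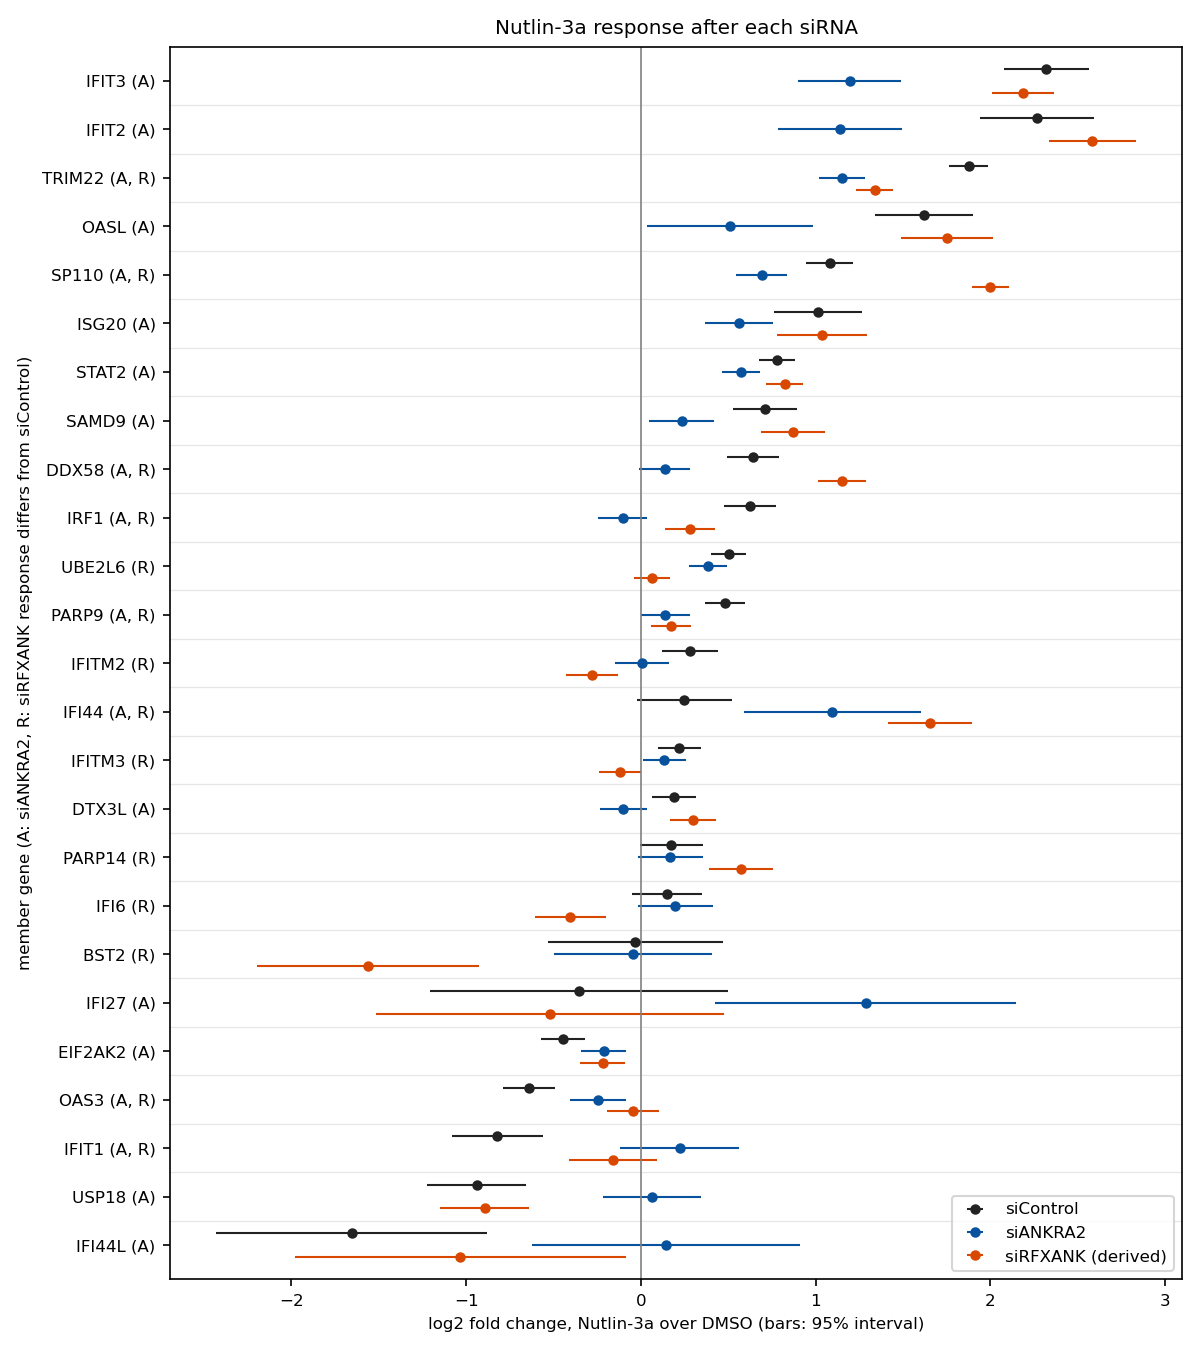
Nutlin-3a response (log2 fold change over DMSO, horizontal axis) after siControl, siANKRA2 and siRFXANK with 95% intervals, for the 25 members (rows) with all group means over the floor whose response differed from that in siControl cells in at least 1 of the siRNAs. For IFIT3, IFIT2, OASL and SAMD9 the siControl and siRFXANK points lie close to each other and the siANKRA2 point is nearer to 0, whereas SP110, DDX58 and IFI44 have the largest response after siRFXANK.

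Without Nutlin-3a, siANKRA2 lowered 23 of 47 members against siControl (48.9%, where 24.5% of all genes were lower) and raised 9 (19.1%, where 24.3% of all genes were higher). Among genes with a mean of at least 10, 56.1% of 41 members were lower and 17.1% higher, against 34% and 32.7% of genes. The median log2 fold change of the members was -0.38, that of all genes 0.01. IFI44 showed the largest fall, from 93.3 to 16.9 normalized counts (-2.47 ± 0.23, DESeq2 adjusted p = 2.5e-25). IFIT1 followed with -1.92 ± 0.15, CMPK2 with -1.60 ± 0.37, OASL with -1.49 ± 0.22 and PARP9 with -1.03 ± 0.07. MX1 (-1.02 ± 0.34), OAS1 (-1.02 ± 0.21), OAS3 (-0.92 ± 0.08) and STAT2 (-0.17 ± 0.06) were lower as well. The fall thus ran through the OAS family (3 of 4 lower), PARP9, DTX3L and PARP14 (3 of 3), and the other antiviral effectors (6 of 11). The 9 members that were higher included all 4 of the IFITM family with BST2, where IFITM2 rose by 0.52 ± 0.08, BST2 by 0.58 ± 0.24, IFITM3 by 0.23 ± 0.06, and IFITM1 was at least 4.96-fold higher. ISG20 rose most among members over the floor (1.67 ± 0.12, from 97.1 to 310 normalized counts), IRF1 by 0.72 ± 0.07, DDX58 by 0.33 ± 0.08 and IFIT5 by 0.28 ± 0.07. ISG15 (0.20 ± 0.10) and IRF9 (-0.34 ± 0.52) were not called.

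Under Nutlin-3a the siANKRA2 cells had 24 of 47 members lower (51.1%, against 25.5% of all genes) and 9 higher (19.1% against 24.6%). The shares at a mean of at least 10 were 58.5% and 19.5% of members, against 35% and 33.4% of genes, and the median was -0.50. RSAD2, which encodes viperin, was at least 1.43-fold lower with siANKRA2 cells at the floor, and OASL went from 197 to 32.4 normalized counts (-2.60 ± 0.18, DESeq2 adjusted p = 4.1e-47). IRF9 was at least 5-fold lower. IFI44 gave -1.62 ± 0.18, IFIT3 -1.5 ± 0.11, PARP9 -1.37 ± 0.06 and TRIM22 -1.36 ± 0.05. IFIT1 was lower by 0.88 ± 0.16, MX1 by 0.81 ± 0.34 and STAT2 by 0.38 ± 0.05 on the log2 scale, and OAS1 was not called (-0.41 ± 0.21). On the other side, ISG20 was higher by 1.22 ± 0.11, IFI27 by 0.97 ± 0.42, USP18 by 0.59 ± 0.15, BST2 by 0.57 ± 0.24, IFIT5 by 0.29 ± 0.07 and ISG15 by 0.24 ± 0.09, and IFITM1 was at least 3.94-fold higher.

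Taking both treatments, 19 members were lower after siANKRA2 in DMSO and in Nutlin-3a: TLR3, STAT2, IFIT1, IFIT3, OAS3, OASL, UBE2L6, HERC6, PARP9, DTX3L, PARP14, MX1, EIF2AK2, TRIM21, TRIM22, SAMD9L, IFI6, IFI44 and SP110. PARP9 was at 880 and 1227 normalized counts in siControl cells in DMSO and Nutlin-3a, at 431 and 475 in siANKRA2 cells, and at 951 and 1073 in siRFXANK cells, so that both siANKRA2 means were below the other 4. DTX3L, which overlaps PARP9 at its 5′ end on the opposite strand, was at 1876 and 2139, at 1031 and 962, and at 1188 and 1461 in the same order, again lowest after siANKRA2. Another 6 members were higher with both treatments: IFIT5, IFITM1, IFITM2, IFITM3, BST2 and ISG20. Calls shared by both treatments were not counted over all genes. Such shares cannot exceed those in DMSO, 24.5% of all genes lower and 24.3% higher. At a mean of at least 10, which IFITM1 did not reach, the limits are 34% and 32.7%. With these limits alone, the 6 higher members are not read as more than the share of all genes. DDX58 was higher in DMSO and lower in Nutlin-3a, and USP18 lower in DMSO and higher in Nutlin-3a. The DDX58 call in Nutlin-3a was not kept at a threshold of 0.01 (DESeq2 adjusted p = 0.029).

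**Figure D4:**
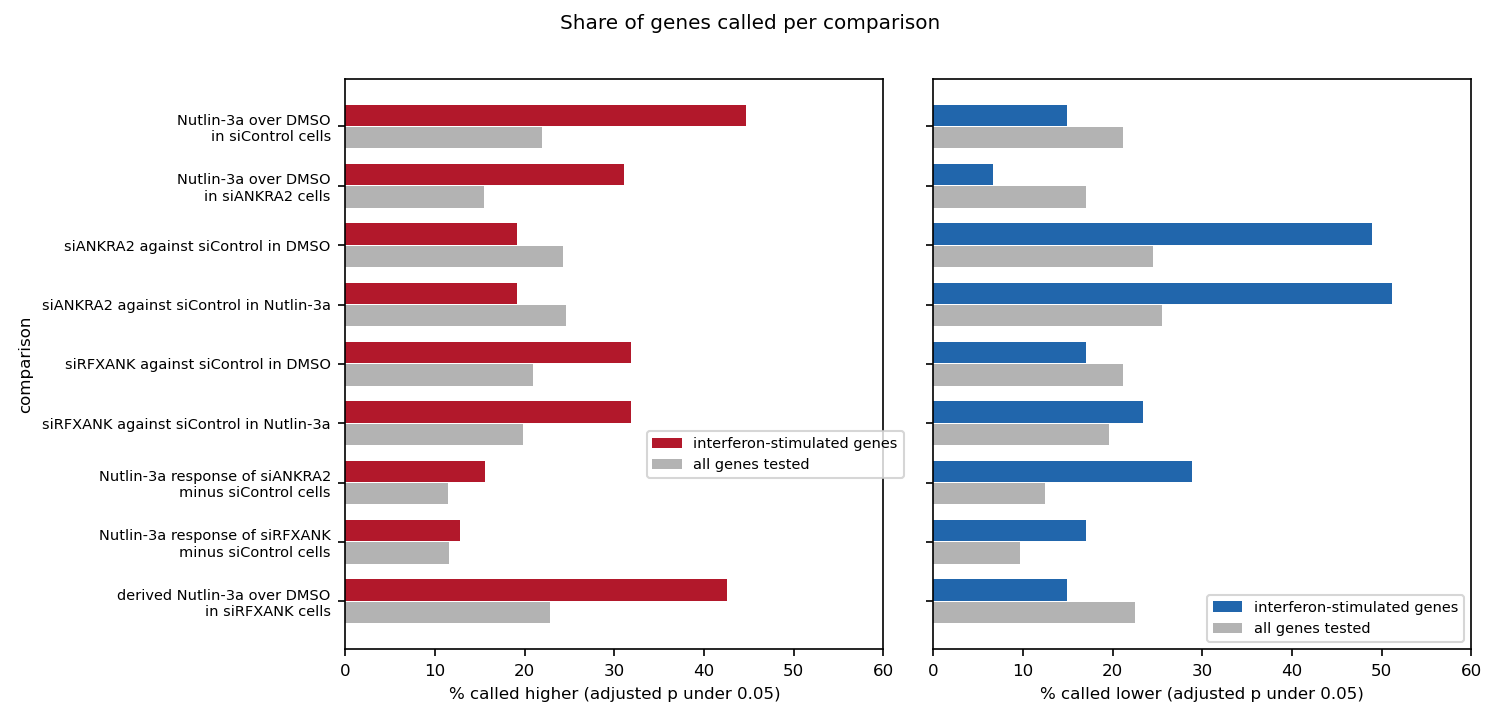
Percent of members (coloured bars) and of all genes tested (grey bars) called higher (left) or lower (right) at an adjusted p under 0.05, for the 6 deposited comparisons and 3 derived results (rows). The members exceed all genes among the higher calls of the 3 Nutlin-3a responses and of siRFXANK against siControl, among the lower calls of siANKRA2 against siControl with either treatment, and among the lower calls of both response differences. They also exceed all genes by smaller margins among the higher response differences and the lower calls of siRFXANK in Nutlin-3a.

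After siRFXANK in DMSO, 15 of 47 members were higher than in siControl cells (31.9%, against 20.9% of all genes) and 8 were lower (17% against 21.2%). At a mean of at least 10 the shares were 34.1% and 19.5% of members, against 28.2% and 29.1% of genes, and the median log2 fold change was 0.03. IFIT3 was higher by 1.45 ± 0.13, IRF9 by 1.25 ± 0.44, IFIT2 by 1.07 ± 0.18, SP110 by 0.89 ± 0.07 and IFITM2 by 0.86 ± 0.08. ISG15 rose by 0.66 ± 0.09, from 410 to 646 normalized counts. IFI44L (-1.44 ± 0.38), GBP1 (-0.92 ± 0.19), DTX3L (-0.66 ± 0.07), PARP14 (-0.63 ± 0.09) and EIF2AK2 (-0.51 ± 0.06) were lower, and so was STAT2 (-0.20 ± 0.06). IFIT1 (-0.12 ± 0.13), OAS1 (-0.19 ± 0.19) and MX1 (0.60 ± 0.28, adjusted p = 0.076) were not called. IFI35 was at least 1.81-fold higher than a siControl mean at the floor, and it was also at least 1.78-fold higher after siANKRA2 in DMSO.

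In Nutlin-3a, siRFXANK cells had 15 of 47 members higher (31.9%, against 19.8% of all genes) and 11 lower (23.4% against 19.6%), with shares at a mean of at least 10 of 36.6% and 26.8% of members, each against 25.9% of genes. The median was 0.17. SP110 was the most changed, at 2411 normalized counts against 688 in siControl cells (1.81 ± 0.05), and 41.1% of its annotated sequence is shared with AC009950.1 on the opposite strand. IFI44 was higher by 1.46 ± 0.12, IFIT2 by 1.39 ± 0.11, CMPK2 by 1.38 ± 0.41 and IFIT3 by 1.32 ± 0.08. IFIT1 rose by 0.55 ± 0.14 and ISG15 by 0.61 ± 0.09. The falls were led by BST2, from 33.0 to 11.7 normalized counts (-1.5 ± 0.33), then GBP1 (-0.62 ± 0.21), IFI6 (-0.58 ± 0.10), OAS1 (-0.57 ± 0.21) and DTX3L (-0.55 ± 0.06). STAT2 was lower by 0.15 ± 0.05 on the log2 scale, and MX1 (0.65 ± 0.29, adjusted p = 0.063, or 0.049 once genes with a lower mean than 10 were left out) and IRF9 (0.28 ± 0.39) were not called.

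With both treatments, 10 members were higher after siRFXANK (DDX58, TLR3, IFIT2, IFIT3, IFITM2, IFITM3, ISG15, USP18, TRIM21 and SP110) and 5 were lower (STAT2, DTX3L, PARP14, EIF2AK2 and GBP1). Shared calls were again not counted over all genes. At a mean of at least 10 they cannot exceed the Nutlin-3a share of 25.9% in either direction. TRIM22 was higher in DMSO and lower in Nutlin-3a, and OAS3 the reverse. Since both siRNAs were set against the same siControl samples, their values are only given side by side. TLR3 gave -0.72 ± 0.14 after siANKRA2 and 0.58 ± 0.12 after siRFXANK in DMSO, and SP110 gave -0.63 ± 0.06 and 1.81 ± 0.05 in Nutlin-3a. For STAT2, DTX3L, PARP14 and EIF2AK2 both siRNAs gave lower values with either treatment, and for IFITM2 and IFITM3 both gave higher ones.

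No table compares the siRFXANK groups with each other, so their Nutlin-3a response was derived from the other comparisons, and in it a level shift between batches cancels if it is alike in DMSO and Nutlin-3a. Of 47 members 20 were higher (42.6%, against 22.8% of all genes) and 7 lower (14.9% against 22.5%). At a mean of at least 10 the shares were 48.8% and 17.1% of members against 29.2% and 29.6% of genes, and the median was 0.28. IFIT2 (2.58 ± 0.13), IFIT3 (2.19 ± 0.09), SP110 (2.0 ± 0.05) and TLR3 (1.99 ± 0.10) rose most among members over the floor, and RSAD2 was at least 2.36-fold higher. STAT2 rose by 0.82 ± 0.05 and ISG15 by 0.44 ± 0.09. The largest falls were those of BST2 (-1.56 ± 0.32), CMPK2 (-1.10 ± 0.29), USP18 (-0.89 ± 0.13), OAS1 (-0.80 ± 0.21) and IFI6 (-0.40 ± 0.10). IFIT1 (-0.16 ± 0.13), MX1 (-0.11 ± 0.27) and IRF9 (0.04 ± 0.38) were not called.

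The response of siRFXANK cells differed from that of siControl cells for 14 members, with 6 higher (12.8%, against 11.6% of all genes) and 8 lower (17% against 9.64%). At a mean of at least 10 these were 14.6% and 19.5% of members, against 15.6% and 13% of genes. The higher responses were those of IFI44 (1.41 ± 0.19), SP110 (0.92 ± 0.09), IFIT1 (0.66 ± 0.19), OAS3 (0.59 ± 0.11), DDX58 (0.51 ± 0.10) and PARP14 (0.40 ± 0.13). IFIT1 and OAS3 did not rise in siRFXANK cells. Their means in DMSO and Nutlin-3a were 228 and 204, and 1052 and 1019 normalized counts, whereas both genes fell in siControl cells. BST2 (-1.53 ± 0.41), IFITM2 (-0.56 ± 0.11), IFI6 (-0.55 ± 0.14), TRIM22 (-0.54 ± 0.08) and UBE2L6 (-0.44 ± 0.07) led the lower responses. Of the genes named throughout, IFIT1 was thus called, and no difference was called for STAT2 (0.05 ± 0.08), ISG15 (-0.05 ± 0.13), MX1 (0.05 ± 0.41), OAS1 (-0.38 ± 0.29) and IRF9 (-0.97 ± 0.58).

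Across the 3 siRNAs, 11 members rose under Nutlin-3a in every case: IFIH1, TLR3, STAT2, IFIT2, IFIT3, ISG15, ISG20, TRIM21, TRIM22, SAMD9 and SP110. EIF2AK2 and CMPK2 fell in every case. Calls shared by all 3 responses were not counted over all genes. At a mean of at least 10 they cannot exceed the shares in siANKRA2 cells, 18.4% of genes higher and 20.6% lower. Of the members in a table, DHX58, OAS2, HERC5, MX2, XAF1, CXCL10 and CXCL11 were called in none of the 9 results, although XAF1 (siANKRA2 in Nutlin-3a) and DHX58 (derived siRFXANK response) passed among genes with a mean of at least 10. Their recovered group means ran up to 11.3, 11.5, 2.7, 7.0, 16.6, 0.7 and 5.1 normalized counts, so low that changes in them may not have been detectable. CXCL10 and CXCL11, the chemokines that mark an interferon response in many tissues, were at most at 5.1 normalized counts in any group.

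The upstream genes of the pathway were counted from fixed lists. As for the members, the counts stand beside 21.9% of all genes higher and 21.2% lower under Nutlin-3a in siControl cells, or 28.8% and 28.9% of genes with a mean of at least 10. None of 21 interferon ligand genes was in a table. Of 9 receptor and kinase genes, 2 were higher and 2 lower under Nutlin-3a in siControl cells, a share of the list near that of all genes, and IFNLR1 fell by 0.94 ± 0.19 and IFNGR2 by 0.37 ± 0.05 on the log2 scale and IFNAR2 rose by 0.24 ± 0.10. Among 10 negative regulators 3 were higher and 3 lower, led by SOCS1, an inhibitor of JAK kinases, from 326 to 98.6 normalized counts (-1.72 ± 0.14), SOCS3 (0.70 ± 0.07) and the phosphatase PTPN1 (0.53 ± 0.05). Of the STAT and IRF factors outside the members, IRF5, a known p53 target, was at 2.99 ± 0.33, STAT3 at 1.14 ± 0.03 and IRF8 at -0.80 ± 0.09. Of 11 sensing adaptors and kinases 9 were higher and 1 lower, with TMEM173, which encodes STING, at 1.5 ± 0.11 and the DNA sensor IFI16 at 1.15 ± 0.04, CGAS falling by 0.85 ± 0.09 on the log2 scale, and AIM2 called at group means of at most 2.9 normalized counts. A further 49 interferon-stimulated genes, of which 44 were tested, had 22 higher and 8 lower with a median of 0.33. The chemokine CCL5 (1.77 ± 0.49), the transcription factor BATF2 (1.64 ± 0.23) and the GTPase GBP3 (1.21 ± 0.11) changed most among them.

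After siANKRA2 the further interferon-stimulated genes had 14 of 44 higher and 19 lower in DMSO, and 12 higher and 24 lower in Nutlin-3a, where all genes gave 24.3% higher and 24.5% lower in DMSO and 24.6% and 25.5% in Nutlin-3a. Genes with a mean of at least 10 gave 32.7% higher and 34% lower in DMSO, and 33.4% and 35% in Nutlin-3a. CD274, which encodes PD-L1, had the largest change in DMSO, from 69.7 to 797 normalized counts (3.52 ± 0.16), followed by GBP4 (-1.97 ± 0.41) and BATF2 (1.85 ± 0.23). In Nutlin-3a CD274 gave 2.83 ± 0.15 and UBA7, the activating enzyme for ISG15, gave -1.97 ± 0.19, while GBP5 was called at group means of at most 3.5 normalized counts. Of the receptor and kinase genes 2 were higher and 4 lower in DMSO, with JAK2 (0.88 ± 0.11) and JAK1 (0.59 ± 0.05) higher and IFNAR1 (-0.36 ± 0.05), a subunit of the type I interferon receptor, lower. Sensing adaptors and kinases had 6 of 11 higher and 3 lower, with TICAM1, the adaptor of TLR3, at 1.35 ± 0.07, TMEM173 at 1.16 ± 0.11 and CGAS at 0.56 ± 0.08. Of the negative regulators 1 was higher and 3 lower, led by SOCS1 (-1.56 ± 0.14), PTPN1 (0.84 ± 0.05) and PIAS3 (-0.50 ± 0.05), and of the STAT and IRF factors IRF2 (-0.59 ± 0.08), STAT3 (0.42 ± 0.03) and IRF3 (-0.29 ± 0.06) changed most. After siRFXANK in DMSO, 10 of the 44 further genes were higher and 11 lower, near the shares of all genes (20.9% and 21.2%), and in Nutlin-3a 18 were higher and 11 lower, against 19.8% and 19.6% of all genes. At a mean of at least 10 the shares of genes were 28.2% and 29.1% in DMSO, and 25.9% in each direction in Nutlin-3a. In Nutlin-3a the largest changes were those of CCL5 (1.61 ± 0.31), CD274 (1.59 ± 0.15) and SERPING1 (-1.21 ± 0.08).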

How the data were processed

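RNA-seq of U2OS cells was deposited as 6 tables of comparisons, with no values per library, so the depth per library is unknown. Per the labels, the submitters' processing notes name bcl2fastq 2.20.0.422, Trimmomatic 0.39, cutadapt 2.10, FastQC 0.11.9, SAMtools 1.10, Picard, featureCounts 1.6.5, DESeq2 1.20.0 and build hg38. The aligner, annotation and strand setting are not given in the sources used here. The authors deposited a mean normalized count per gene (a signal value over all samples of their fit). The authors also deposited the DESeq2 log2 fold change with its standard error, the Wald score, and the p-value with its Benjamini-Hochberg adjusted value. These comparison columns were used because the tables hold no other measurement. The deposited comparisons of siControl and siANKRA2 groups closed to 1.4e-14 on the log2 scale.

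Computed here were response differences and the siRFXANK response, from deposited log2 values and standard errors (two-sided normal test, Benjamini-Hochberg over all genes), and group means, by least squares from fold changes and standard errors with a variance of (1/mean + dispersion)/(n ln² 2), means under 0.5 set to 0.5 and a floor of 3 normalized counts. These steps were tested on simulated data, which cannot show whether the variance formula holds for the deposited values. The recovered levels thus remain approximate. Python 3.11.15, numpy 2.4.6, pandas 2.3.3 and scipy 1.17.1 were used, with GENCODE 29 for positions and RefSeq for promoter windows.

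The members and lists were chosen with earlier results of these data known. In each result the 5 largest rises and 5 largest falls past an adjusted p of 0.05 with a mean of at least 10 were named, with ISG15, IFIT1, MX1, OAS1, IRF9 and STAT2 throughout and the 3 largest changes of a context list. Values of a further regulator and a marker are not reported here. Alternatives were a threshold of 0.01, a log2 change of at least 1, means of at least 10 or 100, renewed adjustment, centring, other tables for the response difference, and another lowest mean. Leaving out members at the floor or with shared sequence, and scaling to the authors' mean, were added after seeing the data.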

Additional observations from a re-analysis of the deposited data

Results flagged for a closer look

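The Nutlin-3a response of 20 members differed between siANKRA2 and siControl cells, and that of 14 members between siRFXANK and siControl cells, by a test of the difference itself (two-sided normal test on the DESeq2 estimates, adjusted over all genes). These were 44.4% of 45 members against 24% of all genes, and 29.8% of 47 members against 21.2%. At a mean of at least 10 the shares were 48.8% against 29.2% for siANKRA2. For siRFXANK they were 34.1% against 28.5%, with the higher differences (14.6%) under the 15.6% of genes. Values are log2 responses after the siRNA minus those after siControl.

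After siANKRA2 the response was lower for IRF9 (-2.0, with 1 group at or under the floor), IFIT2 (-1.12), IFIT3 (-1.12), OASL (-1.11), IRF1 (-0.73), TRIM22 (-0.72), DDX58 (-0.5), SAMD9 (-0.48), ISG20 (-0.45), SP110 (-0.39), PARP9 (-0.34), DTX3L (-0.29) and STAT2 (-0.2). It was higher for EIF2AK2 (0.23), OAS3 (0.4), IFI44 (0.85), USP18 (1.0), IFIT1 (1.04), IFI27 (1.64) and IFI44L (1.8). The IRF9 value is a fitted one and no bound. Its call was lost (adjusted p = 0.054) when the same difference was taken from the 2 siANKRA2 against siControl tables, with p adjusted over more genes.

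After siRFXANK the response was lower for BST2 (-1.53), IFITM2 (-0.56), IFI6 (-0.55), TRIM22 (-0.54), UBE2L6 (-0.44), IRF1 (-0.34), IFITM3 (-0.34) and PARP9 (-0.31). It was higher for PARP14 (0.4), DDX58 (0.51), OAS3 (0.59), IFIT1 (0.66), SP110 (0.92) and IFI44 (1.41). Both sets of differences share the siControl samples. Of the 8 p53 check genes, the response was called lower for 8 after siANKRA2 and for 7 after siRFXANK. The median differences were -1.12 and -0.37, and the part of these genes in the results was not tested.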

How the results depend on the processing

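No paired analysis was possible because the tables hold no values per library, and leaving out samples or another count model was not run for the same reason. No result changed sign, but this was largely fixed in advance and no conclusion is drawn from it. Thresholds, limits on the mean, renewed adjustment and the other tables leave each log2 value unchanged, and centring shifts it only slightly. Counts of members called in either direction stayed within 1.5 times of the reported ones under every alternative run except the following. With a log2 change of at least 1, 9 and 7 members were called for Nutlin-3a in siControl and siANKRA2 cells, 11 and 13 for siANKRA2 in DMSO and Nutlin-3a, 5 and 6 for siRFXANK likewise, 8 and 2 for the response differences of siANKRA2 and siRFXANK, and 12 for the derived siRFXANK response, since this setting leaves out smaller changes. At a threshold of 0.01, 13 response differences of siANKRA2 were called. The shares of all genes were not counted at either setting. Whether the members exceed all genes there is therefore not known. Of single results, 28 of 419 lost their call at 0.01, including some behind the lists of shared calls. After siANKRA2 these were BST2 (DESeq2 adjusted p = 0.036) and IFIT3 (0.04) in DMSO. In Nutlin-3a they were BST2 (0.042), DDX58 (0.029), MX1 (0.036) and IFITM3 (0.047), and PARP14 (0.034) after siRFXANK. For the Nutlin-3a response of siANKRA2 cells they were IFIH1 (0.021), CMPK2 (0.026) and SAMD9 (0.048). IRF9 (adjusted p = 0.054) and EIF2AK2 (adjusted p = 0.053) lost the call of their response difference after siANKRA2 when it was taken from the 2 siANKRA2 against siControl tables. Their log2 differences were unchanged there, and p was adjusted over 26702 genes instead of 22738. Another 6 calls were gained among genes with a mean of at least 10 (p adjusted again): IRF9 for Nutlin-3a in siControl cells (0.04), XAF1 for siANKRA2 in Nutlin-3a (0.038), MX1 for siRFXANK in Nutlin-3a (0.049), DHX58 for the derived siRFXANK response (0.047), IFITM2 for the siANKRA2 response difference (0.0498) and EIF2AK2 for that of siRFXANK (0.042). Scaled to the authors' mean, the level of 15 of 47 members moved by more than 1.5 times, and with a lowest mean of 0.1 that of 3.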

Other observations

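The authors' mean over all samples of their fit exceeded the highest recovered group mean for 8 of 41 members with a mean of at least 10 (19.5%), compared with 6.82% of 18456 genes. It was 23.9 against 7.08 normalized counts for RSAD2, 30.4 against 11.5 for OAS2, 1405 against 901 for IFIT3, 366 against 256 for OASL and 336 against 247 for IFIT1. A mean over these 6 groups alone cannot exceed the highest of them, and the cause of the excess was not tested.

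Of the 49 members, 23 overlap a gene on the opposite strand and 8 one on the same strand in GENCODE 29. Over 10% of the sequence of 9 members, as stretches of 31 bases, is shared with other genes, namely IRF9, XAF1 (69.8%), IFITM1, IFITM3, SP110, IRF1 (35.3%), USP18 (30.8%, with USP41), GBP1 (25.7%, with GBP1P1) and IFITM2. How the authors' counting treated reads from these stretches is not given in the sources used here.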
